A study of Mus musculus with 8 samples.

Results

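The genes of the cytosolic ribosomal proteins were examined for open chromatin at their ends. They were taken by symbol from the RefSeq genes of mouse assembly GRCm38.p6: protein-coding symbols that start with Rpl or Rps followed by a digit, together with Rplp0, Rplp1, Rplp2 and Rpsa, and without the Rps6k kinases, pseudogenes and symbols ending in l1. The rule gave 87 of 21887 protein-coding genes on chromosomes 1 to 19, X and Y. Of these, 46 encode large-subunit proteins, 31 small-subunit proteins and 8 are paralogs or retroposed copies (Rpl3l, Rpl10l, Rpl32l, Rpl36al, Rpl37rt, Rpl39l, Rps27l and Rps27rt). The remaining 2, Rps19bp1 and Rps23rg1, carry a matching symbol but are not ribosomal proteins.

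Open chromatin was mapped in BV2, an established mouse microglial cell line, by ATAC-seq, a method that uses the enzyme Tn5 to cut and tag exposed DNA. The line was cultured by itself (monoculture) or on a layer of GL261 mouse glioma cells (co-culture), and each culture was then kept for 16 h at 21% oxygen (normoxia) or below 0.1% oxygen (hypoxia). This gave 4 groups (monoculture normoxia, monoculture hypoxia, co-culture normoxia and co-culture hypoxia) of 2 biological replicates. Per the labels, all cells were fixed in formaldehyde before sorting, the hypoxic ones while still in the chamber, and cells positive for the leukocyte marker CD45 or for GFP were sorted before transposition. Which of these gates each library used is not given in the sources used here, so the presence of glioma cells in the co-culture libraries cannot be judged from the labels. All libraries model microglia by 1 line, without other brain cells.

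The 8 peak lists held 9910 to 29658 peaks. The shortest were those of monoculture normoxia, with 13333 and 9910 peaks, and the longest was the first list of co-culture hypoxia, with 29658. The second list of co-culture hypoxia, with 21633 peaks, was about as long as those of co-culture normoxia, with 21790 and 21826. Of 12 microglial and macrophage markers, 2 to 7 had a peak at a gene end in a library. Ptprc, which encodes CD45, and Cx3cr1 had one in every library, and Csf1r, Itgam, Aif1 and P2ry12 in none. Of 10 glial and glioma markers, none had a peak in any monoculture library or in the second co-culture normoxia library, and 2 had one in each of the other co-culture libraries (from Sox2, Nes and S100b), while Sox10, Olig2 and Gfap had none in any library.

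The ribosome joins a large and a small subunit, each built from ribosomal RNA and many small proteins that every growing cell needs in nearly equal amounts. The genes of these proteins are housekeeping genes with short, CG-rich promoters that mostly lack a TATA box, and their transcripts start within a run of pyrimidines called the terminal oligopyrimidine (TOP) tract. Through this tract the kinase mTORC1 controls their translation, and low oxygen is known to dampen mTORC1. An accessible promoter is a condition for transcription and not a measure of it, and neither transcripts nor proteins were measured in these libraries.

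The promoters of 8 members carry the results below and are printed here from RefSeq (GRCm38.p6), from 250 bases before the annotated start to 15 bases after it, on the gene's own strand. Rps21, Rpl15 and Rpl37 belong to the 5 members with the highest minimum percentile over the 8 libraries, Rpl13a and Rps25 rose in rank in hypoxic co-culture, Rps6 had a peak mainly in co-culture, and Rpl12 and Rpl6 had no peak in any library. Capitals mark the ETS motif CCGGAAG, the SP1/KLF motif GGGCGG and the E-box CACGTG on either strand, and the pyrimidine run of a TOP start on the sense strand. In Rps21 the reverse complement of GGGCGG runs into the TOP start.
Rps21: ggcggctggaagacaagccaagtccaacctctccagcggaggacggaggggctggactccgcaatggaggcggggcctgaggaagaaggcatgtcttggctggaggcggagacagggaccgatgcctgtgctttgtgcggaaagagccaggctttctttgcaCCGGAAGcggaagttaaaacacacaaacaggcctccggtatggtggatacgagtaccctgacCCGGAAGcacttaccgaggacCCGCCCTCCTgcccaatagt
Rpl15: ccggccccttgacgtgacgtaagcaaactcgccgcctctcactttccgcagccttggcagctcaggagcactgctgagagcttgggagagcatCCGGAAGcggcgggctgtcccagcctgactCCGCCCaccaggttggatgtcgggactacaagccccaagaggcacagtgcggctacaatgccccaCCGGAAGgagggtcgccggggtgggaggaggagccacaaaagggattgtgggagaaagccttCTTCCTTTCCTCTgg
Rpl37: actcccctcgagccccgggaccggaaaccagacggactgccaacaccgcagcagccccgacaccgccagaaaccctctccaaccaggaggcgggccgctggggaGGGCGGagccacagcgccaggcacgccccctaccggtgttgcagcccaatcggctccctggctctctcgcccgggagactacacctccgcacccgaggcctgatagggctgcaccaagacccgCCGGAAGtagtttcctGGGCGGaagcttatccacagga
Rpl13a: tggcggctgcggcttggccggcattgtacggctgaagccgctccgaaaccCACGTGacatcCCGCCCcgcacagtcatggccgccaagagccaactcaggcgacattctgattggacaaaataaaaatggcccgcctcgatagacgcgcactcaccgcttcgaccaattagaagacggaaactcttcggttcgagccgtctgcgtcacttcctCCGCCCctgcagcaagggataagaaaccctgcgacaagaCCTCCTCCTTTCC
Rps25: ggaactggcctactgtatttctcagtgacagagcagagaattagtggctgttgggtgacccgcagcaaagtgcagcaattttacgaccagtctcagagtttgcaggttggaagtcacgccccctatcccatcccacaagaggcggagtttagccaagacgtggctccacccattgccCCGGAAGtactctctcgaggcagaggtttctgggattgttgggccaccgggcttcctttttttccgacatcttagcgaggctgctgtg
Rps6: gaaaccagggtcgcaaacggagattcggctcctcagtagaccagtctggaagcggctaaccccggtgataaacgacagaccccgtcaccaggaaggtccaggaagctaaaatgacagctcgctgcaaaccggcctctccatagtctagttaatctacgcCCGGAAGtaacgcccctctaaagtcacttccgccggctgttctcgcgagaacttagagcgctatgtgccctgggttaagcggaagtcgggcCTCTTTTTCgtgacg
Rpl12: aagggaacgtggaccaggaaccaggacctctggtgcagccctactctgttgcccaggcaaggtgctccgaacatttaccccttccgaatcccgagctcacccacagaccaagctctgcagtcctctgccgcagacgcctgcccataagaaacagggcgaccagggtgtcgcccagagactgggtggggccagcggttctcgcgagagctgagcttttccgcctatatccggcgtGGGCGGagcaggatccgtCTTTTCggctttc
Rpl6: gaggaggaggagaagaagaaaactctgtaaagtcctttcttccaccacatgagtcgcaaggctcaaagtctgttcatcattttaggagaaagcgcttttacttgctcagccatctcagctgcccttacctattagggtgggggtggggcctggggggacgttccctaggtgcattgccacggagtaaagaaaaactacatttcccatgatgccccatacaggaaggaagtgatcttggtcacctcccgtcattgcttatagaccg

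These stretches lie at chr2:180257129-180257393 on the plus strand (Rps21), chr14:18270972-18271236 on the minus strand (Rpl15), chr15:5116363-5116627 on the plus strand (Rpl37), chr7:45128731-45128995 on the minus strand (Rpl13a), chr9:44407464-44407728 on the plus strand (Rps25), chr4:86857353-86857617 on the minus strand (Rps6), chr2:32961462-32961726 on the plus strand (Rpl12) and chr5:121204251-121204515 on the plus strand (Rpl6). Each covers the proximal promoter and the first 15 bases of the first exon.

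A promoter of this kind was at hand for 67 of the 87 members and for 17492 protein-coding genes, each 300 bases long (250 before and 50 after the start). The ETS motif CCGGAAG was found in 37.3% of the members' promoters (25 of 67) against 11.9% of all promoters. TOP starts, counted as a C within 5 bases of the annotated start that opens a run of at least 4 further pyrimidines, were found in 44.8% of the members (30 of 67) against 18.7% of all. Only the first annotated start of each gene was used, and runs that open further away were not counted. An example is the run cttcctttttttcc before the start of Rps25. A gene without a counted TOP start may therefore still have such a tract. No member had the TATA box TATAAA on the sense strand 40 to 20 bases before the start, against 2.84% of all promoters. Smaller contrasts were seen for GGGCGG, at 56.7% against 46.3%, and for the YY1 motif AAGATGG, at 11.9% against 6.37%. The E-box CACGTG was present in 7.46% against 7.9%. The hypoxia response element core, counted in its 2 spellings on both strands, was present in 25.4% against 20.7% (ACGTG, which lies within CACGTG) and in 56.7% against 38.4% (GCGTG). Median GC content was 57.0% in the members and 56.3% in all promoters. These shares describe letters in a window and not bound factors.

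A gene was said to have a peak in a library when a peak overlapped by at least 1 bp the window from 1 kb before to 1 kb after either end of the gene. In monoculture normoxia 34 and 29 of the 87 members had a peak. The counts were 51 and 55 in monoculture hypoxia, 55 and 62 in co-culture normoxia, and 71 and 68 in co-culture hypoxia. The group means were 31.5 ± 3.54, 53.0 ± 2.83, 58.5 ± 4.95 and 69.5 ± 2.12 members (SD, n = 2 in each). Both replicates of co-culture hypoxia therefore had more ribosomal protein genes with a peak than any other library, and both of monoculture normoxia had fewer. Over all protein-coding genes the shares were 26.1% and 21.6% in monoculture normoxia, 36.5% and 36.7% in monoculture hypoxia, 39.0% and 41.2% in co-culture normoxia, and 43.9% and 41.4% in co-culture hypoxia, so the order of the groups was shared with the whole genome. The members' shares ran from 33.3% to 81.6% over the same libraries.

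A peak that is missing from a list did not pass the authors' threshold in that library, and the lists also differ in length. Where each list was limited to its 9910 peaks with the highest −log10 p, 25 and 29 members had a peak in monoculture normoxia, 22 and 20 in monoculture hypoxia, 38 and 40 in co-culture normoxia, and 39 and 55 in co-culture hypoxia. In lists of equal number, monoculture hypoxia thus lay below monoculture normoxia, the reverse of the deposited lists, while both co-culture groups stayed above both monoculture groups. Over all protein-coding genes the corresponding shares were 21.9% and 21.6%, 19.1% and 17.3%, 24.4% and 27.2%, and 24.1% and 28.6%, in the same order of groups. Since the cells were measured in bulk, a promoter open in more cells cannot be told apart from one more open in each cell.

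**Figure D1:**
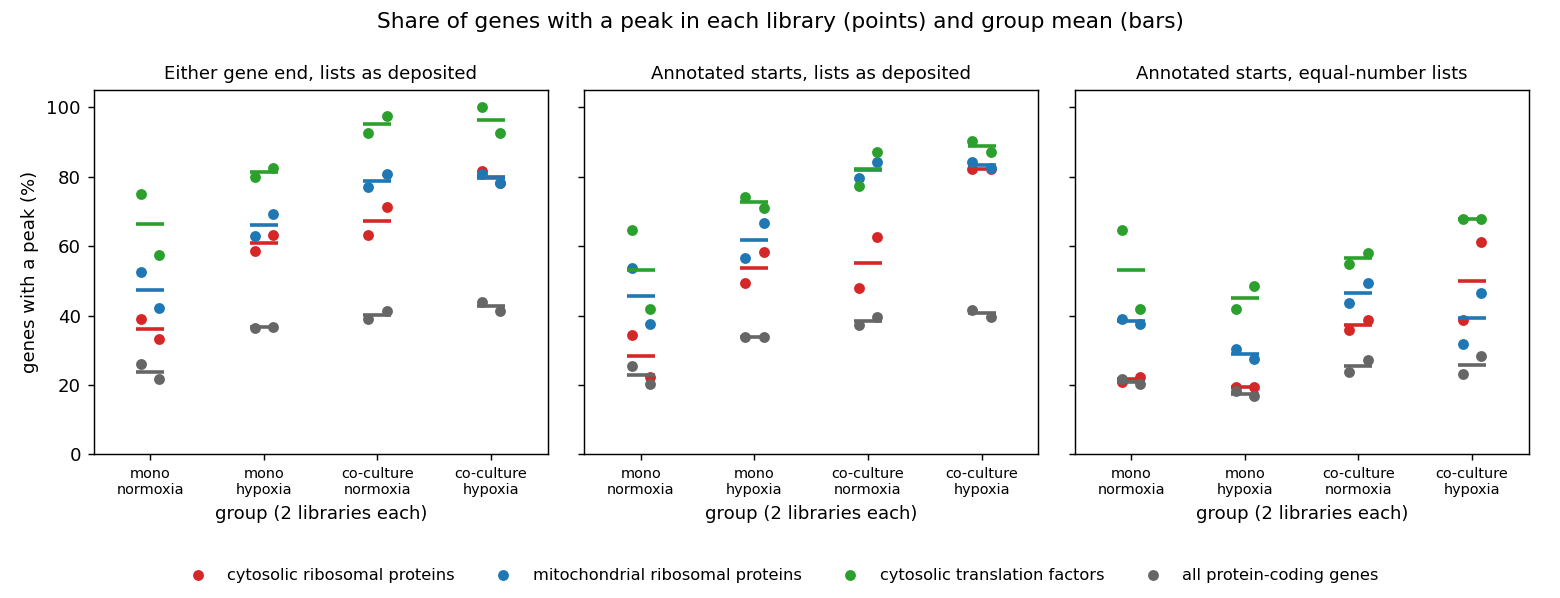
Share of genes with a peak (%, vertical axis) in each of the 4 groups (horizontal axis, 2 libraries each), for peaks at either gene end, at annotated starts, and at annotated starts with lists of equal number; points are libraries and bars are group means. At annotated starts the cytosolic ribosomal protein genes stand at 47.8% and 62.7% in co-culture normoxia and at 82.1% in both libraries of co-culture hypoxia, while all protein-coding genes stay between 37.2% and 41.7% in these 4 libraries. With lists of equal number the 2 co-culture groups of members meet at 38.8%.

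Most of the family thus had a called peak in some libraries and not in others. Peaks were found in every library for 22 members (25.3%), against 17.4% of all protein-coding genes, and in none for 12 members (13.8%), against 50.8%. In lists of equal number only 11 members (12.6%) had a peak everywhere, against 10.9% of all genes. At annotated starts these were 12 of 67 (17.9%) against 16.2%, and at starts in lists of equal number 7 (10.4%) against 10.7%. The share of members with a peak everywhere was then close to that of all genes. Large-subunit genes numbered 14 with a peak in all 8 libraries, 27 with a peak in 1 to 7 and 5 with none. For small-subunit genes these numbers were 7, 23 and 1, and for paralogs 1, 2 and 5. In co-culture hypoxia 29 and 28 of the 31 small-subunit genes and 38 and 37 of the 46 large-subunit genes had a peak, whereas in monoculture normoxia the counts were 12 and 11, and 21 and 17.

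**Figure D2:**
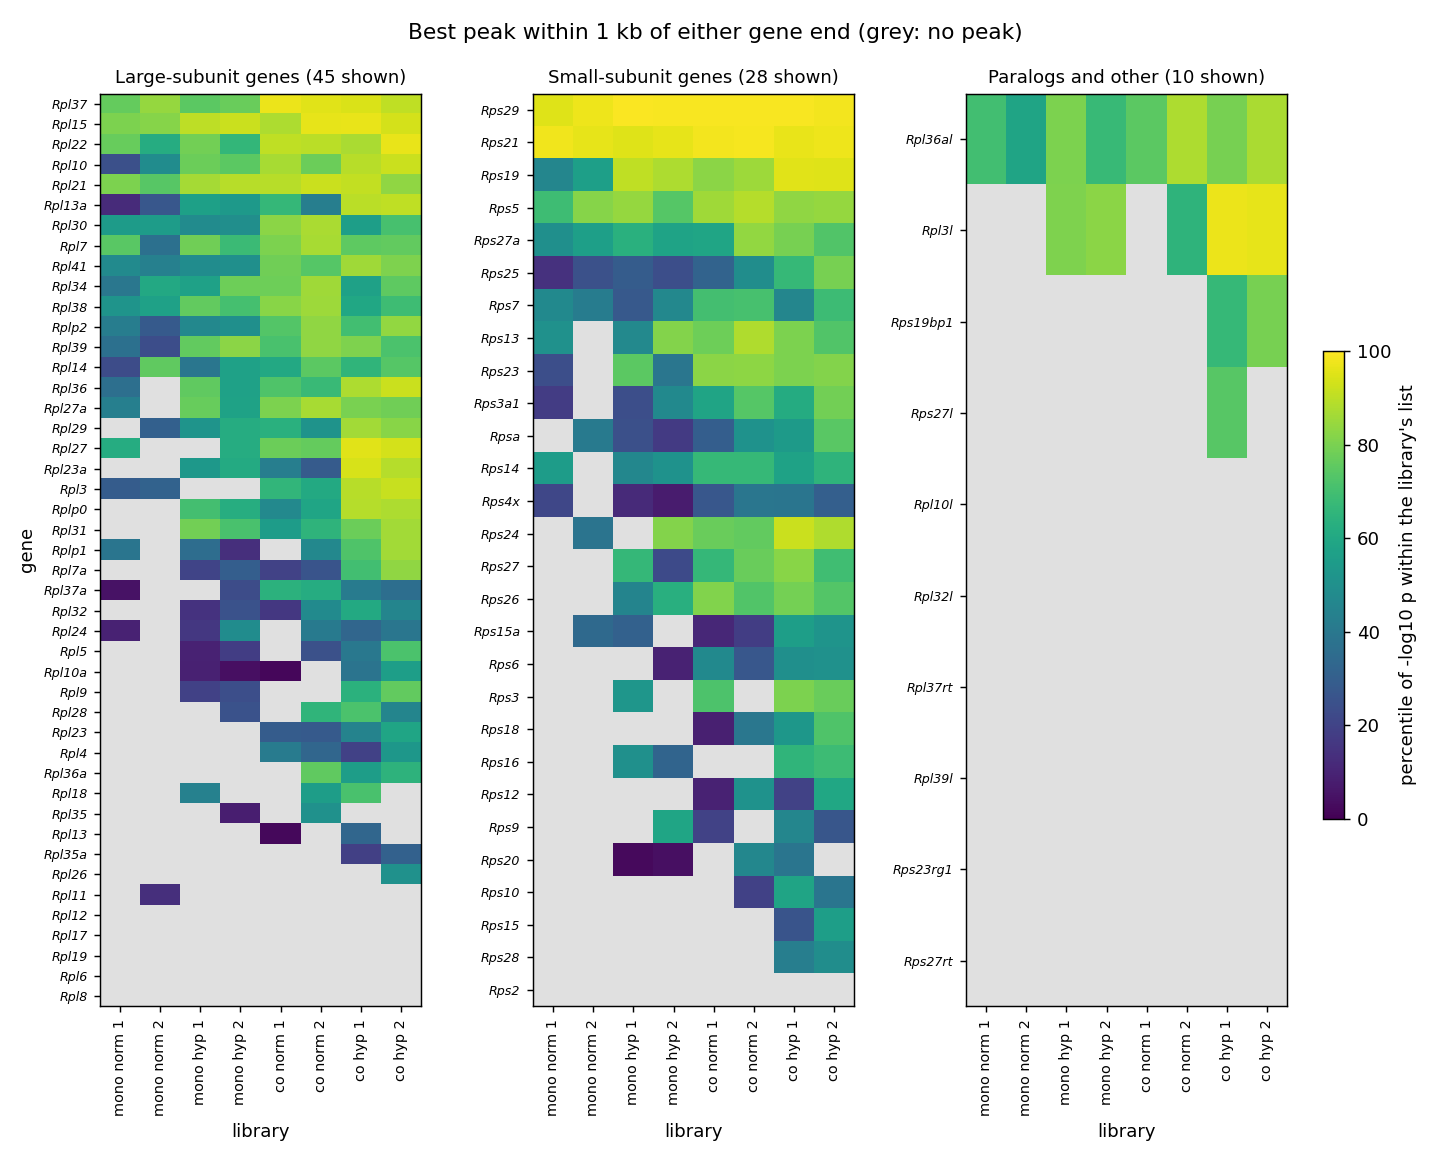
Percentile of the best peak of each member by −log10 p within its library's list (colour, 0 to 100; grey where there is no peak), with 83 of the 87 genes in rows and the 8 libraries in columns, for large-subunit genes, small-subunit genes, and paralogs with other proteins. Grey cells are most frequent in the 2 monoculture normoxia columns, and the 22 genes with no grey cell include Rps29 and Rps21, which stay above the 95th percentile in every library except that Rps29 is at 95.0 in the first monoculture normoxia library.

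The strongest and most even peaks belonged to a few members. The strength of a peak is given here as its percentile by the authors' −log10 p among all peaks of the same list. Rps21, a small-subunit protein gene 95 bp from the end of Cables2, was at 98.0 and 96.3 in monoculture normoxia, 95.2 and 96.1 in monoculture hypoxia, 98.2 and 98.5 in co-culture normoxia, and 96.6 and 97.6 in co-culture hypoxia. Its summits lay between −126 and −202 bp from the start in all 8 libraries, within the sequence printed above. Rps29, which encodes a zinc-binding small-subunit protein, was at 95.0 and 97.3, 99.5 and 99.2, 99.2 and 98.9, and 99.2 and 98.1 in the same order of groups. The next gene to Rps29 is Rn7s1, an RNA gene 109 bp away, and a peak between them cannot be assigned to either.

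Rpl15, a large-subunit gene 150 bp from the end of Nkiras1, was at 80.4 and 82.0 in monoculture normoxia, 90.0 and 91.9 in monoculture hypoxia, 87.6 and 96.2 in co-culture normoxia, and 96.7 and 93.4 in co-culture hypoxia. Rpl37, a large-subunit gene 51 bp from the end of Card6, was at 76.4 and 84.0, 74.9 and 77.3, 96.9 and 95.6, and 94.2 and 90.5. All 4 co-culture libraries thus held a higher percentile for Rpl37 than the 4 monoculture libraries, but lists of different length give percentiles that show no change by themselves. Rpl21, also a large-subunit gene, ranged from 74.2 to 91.8.

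Among the 22 members with a peak in every library, the lowest percentiles were those of Rpl13a (12.4), Rps25 (14.4), Rpl14 (23.4), Rpl39 (23.6) and Rpl10 (24.3), all in a monoculture normoxia library. Rpl39, an X-linked gene for one of the smallest ribosomal proteins, was at 36.8 and 23.6 in monoculture normoxia and at 75.8 and 82.8 in monoculture hypoxia. In co-culture it was at 71.4 and 83.3 in normoxia and 80.6 and 71.6 in hypoxia. Rpl10, an X-linked large-subunit gene 82 bp from the end of Dnase1l1, was at 24.3 and 48.6 in monoculture normoxia and between 74.9 and 92.1 in the other 6 libraries. Ranked only among genes with a peak in every library, these groups met. The second co-culture normoxia library was then at 25.3 and the second monoculture normoxia library at 27.8. The limma test used below called Rpl10 in no contrast (limma adjusted p = 0.198 to 0.845). Rpl14 differed widely within a group, with 23.4 and 75.6 in the 2 monoculture normoxia libraries.

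The 12 members with no peak at either end in any library were Rpl6, Rpl8, Rpl12, Rpl17, Rpl19 and Rps2 of the core ribosome, the paralogs and copies Rpl10l, Rpl32l, Rpl37rt, Rpl39l and Rps27rt, and Rps23rg1. Rpl10l and Rpl39l, known as testis-expressed paralogs of X-linked genes, had their nearest peak at least 125331 and 111339 bp away. RefSeq places the first annotated start of Rpl19 4707 bp and that of Rps2 1942 bp inside the gene's outer span, so the windows at the outer ends missed it. At that start Rpl19 did have a peak in the second co-culture normoxia library and in both co-culture hypoxia libraries, at percentiles 13.3, 13.5 and 27.9. Rps2, a small-subunit protein at the messenger RNA entry site, had a peak at its start in the same 3 libraries, at 26.1, 51.8 and 57.9. A peak inside Rpl17 was found in 3 libraries. The nearest peak to Rpl6 lay at least 10684 bp away in every library, that to Rpl8 at least 4069 bp and that to Rpl12 at least 2772 bp, so no peak was called at or inside these 3 core genes in any of the 8 libraries.

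Peaks sat mainly at the start and just before it. Of 310 best peaks of members with a known start (1 per member and library), 275 (88.7%) had their summit within 500 bp of an annotated start. The others, in 15 members, lay elsewhere in the windows, such as the peaks at the far end of Rpl3l, 450 bp from Msrb1. Taking the best peak with its summit within 500 bp of a start, 263 of 294 summits (89.5%) lay upstream, with a median position of −98 bp and quartiles of −170 and −41 bp. Over all protein-coding genes, 73.9% of 47537 summits lay upstream, with a median of −64 bp and quartiles of −133 and 3 bp. Summits of 1 gene in different libraries share a promoter and are not independent, and no test was made of this shift.

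**Figure D3:**
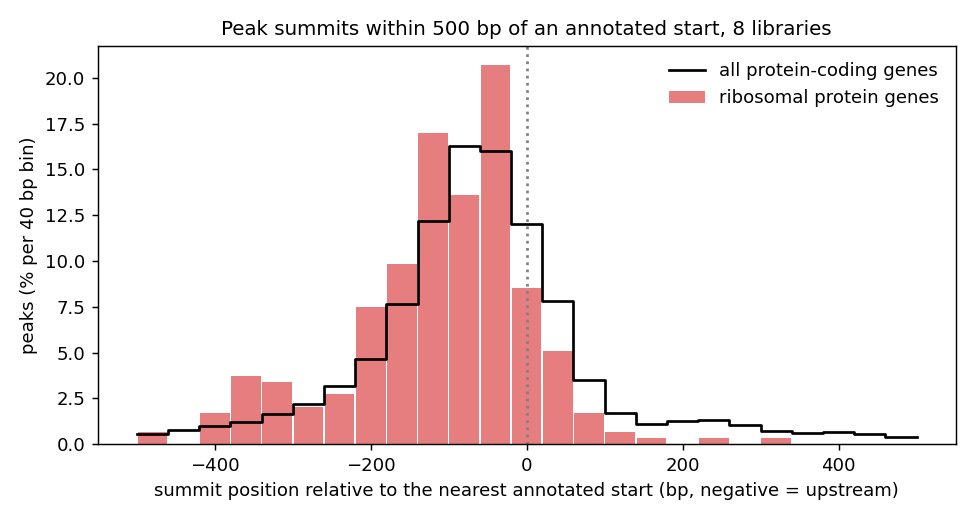
Position of peak summits relative to the nearest annotated start (bp, horizontal axis, negative upstream) as a share of peaks per 40 bp bin (%, vertical axis), for ribosomal protein genes (bars, 294 peaks) and all protein-coding genes (line, 47537 peaks), pooled over 8 libraries. The bars lie further upstream, with a median of −98 bp against −64 bp.

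A neighbouring protein-coding gene had an end within 1 kb of 31 members, and a peak between such a pair cannot be given to either gene. Of these 31 members, 10 had a peak everywhere and 3 nowhere, and of the other 56 members 12 and 9. The median number of libraries with a peak was 6 in both sets.

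Hypoxia against normoxia in monoculture asks what low oxygen does to these promoters in microglial cells alone. A peak was gained, meaning present in both hypoxic and neither normoxic library, at 15 members, and lost at 1. Over all protein-coding genes 6.73% gained and 0.11% lost a peak. The gains included the P-stalk gene Rplp0, whose product helps recruit elongation factors, the large-subunit genes Rpl5, Rpl7a, Rpl9, Rpl10a, Rpl23a, Rpl31 and Rpl32, the small-subunit genes Rps16, Rps20, Rps26 and Rps27, and the muscle paralog Rpl3l. Rpl31 was absent from both normoxic lists and at 78.9 and 71.2 in the hypoxic ones. Rpl3, which encodes a protein near the peptidyl transferase centre, lost its peak: it was at 29.1 and 31.3 in normoxia and had none in hypoxia, but was at 66.0 and 60.9 and at 89.2 and 91.5 in the co-culture groups. No member was lost in this contrast with a window of 500 bp, with summits required inside the window or with peaks of −log10 p of at least 10. In lists of equal number, 3 members gained a peak (Rpl31 and Rpl3l among them) and 5 lost one (Rpl3, Rpl30, Rpl41, Rplp2 and Rps7), against 1.1% and 2.77% of all genes. The gains at the other 12 members are therefore not seen once the lists have the same length. At annotated starts, introduced below, 12 of 67 members gained a peak and 1, Rpl10, counted as lost, against 5.65% and 0.172% of all genes. The Rpl10 peak was still present in monoculture hypoxia, with summits at −563 and −536 bp, just beyond the 500 bp allowed. With lists of equal number as well the gains and losses were 1 (Rpl31) and 2 (Rplp2 and Rps7), against 0.858% and 2.55%. Without the first monoculture normoxia library the gains at gene ends numbered 24, against 12.8% of all genes.

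The peaks of Rpl3l, in the 5 libraries that had one, lay 3835 to 3886 bp from the nearer of its 2 annotated starts, so they are not at a start. Rpl5, whose protein carries ribosomal RNA into the large subunit together with that of Rpl11, had no peak in monoculture normoxia or in the first co-culture normoxia library. In the other libraries Rpl5 was at 9.67 and 18 in monoculture hypoxia, 24.9 in the second co-culture normoxia library, and 40.2 and 71.6 in co-culture hypoxia. Its partner Rpl11 had a peak only in the second monoculture normoxia library, at 13.5.

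Within co-culture, hypoxia against normoxia gave gains at 6 members and a loss at 1, against 1.79% and 0.553% of all genes. The gains were Rpl9, Rpl35a, Rps15, Rps16, Rps28 and Rps19bp1. The last, which encodes a small regulator of the deacetylase SIRT1 and not a ribosomal protein, was at 67.0 and 79.3 in the hypoxic lists and had no peak in any of the other 6 libraries. Rpl35a (18.8 and 30.9), Rps15 (26.0 and 55.9) and Rps28 (42.9 and 48.9) likewise had a peak in the co-culture hypoxia libraries only, and Rps28 has its end 10 bp from that of Ndufa7. Without the second co-culture normoxia library the gains numbered 14, against 4.16% of all genes, and with peaks of −log10 p of at least 10 they numbered 11, against 2.78%. In lists of equal number 5 members gained a peak and 1 lost one, against 1.98% and 1.76% of all genes. Of those 5 only Rps19bp1 was among the 6 of the deposited lists.

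Where only peaks with a summit within 500 bp of an annotated start were counted, the co-culture gains numbered 12 of the 67 members with a known start, against 1.7% of 17492 genes, with no loss against 0.692%. They were Rpl9, Rpl10a, Rpl18, Rpl35a, Rpl41, Rps9, Rps15, Rps15a, Rps16, Rps18, Rps28 and Rps19bp1. This way of counting was chosen after the windows at gene ends were seen to miss some starts. At starts, 23 and 15 of the 67 members had a peak in monoculture normoxia, 33 and 39 in monoculture hypoxia, 32 and 42 in co-culture normoxia and 55 in each co-culture hypoxia library. Over all genes with a known start the shares were 25.5% and 20.3%, 33.8% and 33.8%, 37.2% and 39.7%, and 41.7% and 39.7%. In the deposited lists the members' counts within co-culture did not overlap between normoxia and hypoxia, while the shares of all genes met at 39.7%. With lists of equal number as well, the members with a peak at a start were 14 and 15 in monoculture normoxia, 13 and 13 in monoculture hypoxia, 24 and 26 in co-culture normoxia, and 26 and 41 in co-culture hypoxia, so the co-culture groups met at 26. Over all genes the shares were then 21.6% and 20.3%, 18.2% and 16.7%, 23.8% and 27.1%, and 23.3% and 28.3%. In this setting 6 members gained a peak (Rpl7a, Rpl13a, Rpl41, Rps25, Rps27l and Rps19bp1) and Rpl37a lost one, against 1.9% and 1.78%. Only Rpl41 and Rps19bp1 were thus gained in both ways of counting at starts.

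Rpl41, which encodes the smallest ribosomal protein, shows how the windows matter. Its best peak was at 47.8 and 43.7 in monoculture normoxia and at 78.4 and 73.5 in co-culture normoxia, with summits 1337 to 1648 bp downstream of its start, beyond the gene and towards Zc3h10. In co-culture hypoxia the best peak was at 85.8 and 80.5, with summits at −116 and −68 bp from the start. A peak at the Rpl41 start itself was called in the 4 hypoxic libraries and in no normoxic one. The same held for Rpl9, Rpl10a and Rps16, so in the deposited lists 4 members separated all hypoxic from all normoxic libraries at their starts, against 0.2% of all genes. For peaks at gene ends these were 2, Rpl9 and Rps16, against 0.288%. The first co-culture normoxia library did hold a peak near Rpl10a, with its summit at −545 bp, just outside the 500 bp. In lists of equal number there was no such member, at starts (0.0457% of all genes) or at gene ends (0.0777%). Rpl9, 66 bp from the end of Lias, was at 19.2 and 24.2 in monoculture hypoxia and at 63.8 and 76.0 in co-culture hypoxia. Rps16, a small-subunit gene with no coding neighbour within 1 kb, was at 50.2 and 32.2 and at 65.5 and 68.5.

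Co-culture against monoculture addresses what the presence of glioma cells does. In normoxia 14 members gained a peak and none lost one, against 8.85% and 0.0183% of all genes. They included Rplp0, Rpl4, Rpl7a, Rpl23, Rpl23a, Rpl31, Rpl32, Rps6, Rps12, Rps18, Rps26 and Rps27. In lists of equal number the gains were 7 with no loss, against 2.32% and 0.466%, and 4 of the 7 were among the 14, Rpl31, Rps26 and Rps27 included. At annotated starts they were 9 with no loss (8.53% and 0.0172%), and at starts in lists of equal number 6 with no loss (2.18% and 0.32%). Without the first monoculture normoxia or the first co-culture normoxia library the gains at gene ends were 23, against 15.7% and 12.7% of all genes. Hypoxia in monoculture and co-culture in normoxia share the monoculture normoxia libraries, so gains common to both are not independent. In hypoxia, co-culture gained a peak at 13 members and lost one at 1, against 3.71% and 0.329% of all genes. The members that gained one included Rpl3, Rpl4, Rpl23, Rpl35a, Rpl36a, Rps10, Rps12, Rps15, Rps18, Rps28 and Rps19bp1. With lists of equal number the gains were 12 with no loss, against 4.98% and 0.429%, but they were mostly other genes: only Rpl3 and Rps19bp1 were among the 13 of the deposited lists. The other 10 were Rpl7a, Rpl13a, Rpl23a, Rpl27, Rpl29, Rpl41, Rplp1, Rplp2, Rps3 and Rps25. At annotated starts the gains were 14 with no loss (4.02% and 0.229%), 10 of them among the 13. At starts in lists of equal number they were 10 with no loss (4.89% and 0.28%), of which only Rps19bp1 was among the 13. The number of gains thus stood above the share of all genes in each of these 4 ways of counting, but the genes gained depended on the length of the lists.

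Rpl4, Rpl23, Rps12 and Rps18 had a peak in each of the 4 co-culture libraries and in no monoculture library of the deposited lists, against 1.22% of all genes. At annotated starts this held for Rpl23 and Rps12 only, against 1.3%, and in lists of equal number for no member, at gene ends (0.653% of all genes) or at starts (0.629%). Rpl23, a large-subunit gene, was at 29.1 and 28.5 in co-culture normoxia and at 44.9 and 58.8 in co-culture hypoxia. For Rps12 the values were 9.65 and 50.8, and 19.6 and 59.7, so the replicates differed more than the groups. The best peaks of Rpl4 in both co-culture normoxia libraries and the first co-culture hypoxia library lay 5820 to 6144 bp from its start, beyond the far end of the gene, and that of the second co-culture hypoxia library was at the start (−228 bp). Those of Rps18 lay 4387 and 4091 bp from its start in co-culture normoxia and at −117 bp in both co-culture hypoxia libraries. Rps6, the small-subunit substrate of S6 kinase, had no peak in monoculture normoxia and was at 9.76 in the second monoculture hypoxia library only. In co-culture Rps6 was at 47.6 and 27.3 in normoxia and 49.7 and 50.7 in hypoxia. Glial markers with a peak (0 of 10 in each monoculture library, 0 to 2 of 10 in co-culture) moved in the same direction, and their part in these gains was not tested.

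The 3 P-stalk genes of the large subunit differed among themselves. Rplp0 had no peak in monoculture normoxia and was at 70.1 and 62.2 in monoculture hypoxia, 46.9 and 58.9 in co-culture normoxia, and 88.9 and 87.5 in co-culture hypoxia. In co-culture both hypoxic libraries thus lay above both normoxic ones. Rplp1 was at 39.0 in the first monoculture normoxia library, 35.9 and 13.3 in monoculture hypoxia, 46.8 in the second co-culture normoxia library, and 72.5 and 86.0 in co-culture hypoxia. Rplp2, 86 bp from the end of Pidd1, had a peak in every library, at 42.3 and 28.4, 46.7 and 49.9, 73.1 and 83.4, and 69.6 and 83.6. Its 4 co-culture values all lay above the 4 monoculture values. Rpsa, a small-subunit gene whose protein is also known as a laminin receptor, had a peak at its start in both monoculture hypoxia libraries (24.3 and 17.1), the second co-culture normoxia library (51.0) and both co-culture hypoxia libraries (54.3 and 74.4).

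Rps4x, the X-linked small-subunit gene, had a peak in 7 libraries, between 7.75 and 39.4. Rps27a, which encodes a ribosomal protein fused to ubiquitin and lies 90 bp from the end of Clhc1, was at 49.7 to 83.8 in all 8. Rps27l, a paralog of Rps27, had a peak at a gene end in the first co-culture hypoxia library only, at 73.9. At its annotated start Rps27l had a peak in 5 libraries, at 14.2, 19.4, 36.7, 73.9 and 59.8. Rpl36al, the paralog with a peak in all 8 libraries, was at 58.4 to 87.8 and lies 91 bp from the end of Mgat2.

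Whether peaks changed in strength could be tested only for genes with a peak in every library. Each gene's best −log10 p was ranked among the 3801 such genes within each library, ranks were turned into normal scores, and groups were compared with limma, with Benjamini-Hochberg adjustment over all 3801 genes. The 22 members tested are those with a peak in every library, so they do not stand for the family. Differences are in normal score units, in which 0 means the same rank. Hypoxia in co-culture called 2 members higher and 0 lower, against 4.13% of all genes higher and 3.95% lower. No member was called in the other 4 contrasts. On log2 values in place of ranks, however, co-culture in hypoxia called Rpl13a and Rps25 higher, and without the first monoculture normoxia library it called Rps25 higher and hypoxia in monoculture called Rpl39 higher. Of all genes, 0.684% were called higher and 0.789% lower by hypoxia in monoculture, 0.0% and 0.0263% by co-culture in normoxia, 0.105% and 0.21% by co-culture in hypoxia, and 0.0% in either direction for the interaction of oxygen and culture. At an unadjusted p under 0.05, limma had 3 members (13.6%) for hypoxia in monoculture against 20% of all genes tested, and 5 (22.7%) for hypoxia in co-culture against 27.8%. For co-culture these were 1 (4.55%) in normoxia against 12.1% and 4 (18.2%) in hypoxia against 22.7%, and for the interaction 3 (13.6%) against 11.5%. In the first 4 contrasts the members' share was thus below that of all genes.

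Rpl13a was 1 of the 2. Its protein is a large-subunit component that can leave the ribosome and, as part of the GAIT complex, hold back translation of inflammatory messenger RNAs in myeloid cells. Its percentiles were 12.4 and 27.1 in monoculture normoxia, 56.7 and 53.9 in monoculture hypoxia, 66.6 and 42.8 in co-culture normoxia, and 89.5 and 90.3 in co-culture hypoxia. Both co-culture hypoxia libraries lay above all others, and within each culture the hypoxic and normoxic libraries did not overlap. Summits held 11 and 17, 34 and 33, 41 and 30, and 89 and 90 fragments, as solved from the deposited fold and p. The rank rose in hypoxic over normoxic co-culture by 1.64 (SE 0.40, 95% interval 0.78 to 2.51, limma adjusted p = 0.0359). In monoculture the difference was 0.86 (SE 0.40, interval −0.01 to 1.73, limma adjusted p = 0.249), and the interaction was 0.79 (SE 0.56, interval −0.44 to 2.01, limma adjusted p = 0.616).

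In the second monoculture normoxia and first co-culture normoxia libraries the best peak at Rpl13a lay 4002 and 4253 bp from its start, beyond the far end of the gene. At the Rpl13a start itself the first co-culture normoxia library was at 48.3 and the second monoculture normoxia library had no peak. With summits required inside the window the co-culture difference was 2.00 (limma adjusted p = 0.00968).

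Rps25, the other, encodes a small-subunit protein known for its need in initiation at internal ribosome entry sites. It spans chr9:44407714-44410406, 166 bp from the end of Trappc4. Its percentiles were 14.4 and 24.7 in monoculture normoxia, 29.0 and 24.2 in monoculture hypoxia, 32.0 and 49.0 in co-culture normoxia, and 66.8 and 79.3 in co-culture hypoxia, and the last 2 lay above all others, while the monoculture groups overlapped. Its summits held 11 and 15, 17 and 18, 19 and 27, and 38 and 55 fragments. The rank rose in hypoxic co-culture by 1.33 (SE 0.32, interval 0.63 to 2.04, limma adjusted p = 0.0365). In monoculture the difference was −0.05 (SE 0.32, interval −0.76 to 0.66, limma adjusted p = 0.95), and the interaction of 1.38 (SE 0.46, interval 0.38 to 2.38) did not pass adjustment (limma adjusted p = 0.347).

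Both calls lay close to the threshold. Without the first or second monoculture hypoxia library the differences hardly moved, at 1.62 and 1.64 for Rpl13a (limma adjusted p = 0.0536 and 0.0543) and 1.31 and 1.33 for Rps25 (0.0556 and 0.0555). Leaving out the second co-culture normoxia library gave a difference of 1.07 (0.237) for Rpl13a and 1.49 (0.125) for Rps25, with the limma adjusted p in brackets. Leaving out the first or second co-culture hypoxia library gave 1.71 (0.152) and 1.56 (0.217) for Rpl13a, and 1.57 (0.115) and 1.04 (0.24) for Rps25, and without the first co-culture normoxia library Rps25 was at 1.15 (0.119). Ranked by the deposited fold enrichment, the differences were 1.15 (limma adjusted p = 0.252) for Rpl13a and 0.88 (0.383) for Rps25.

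**Figure D4:**
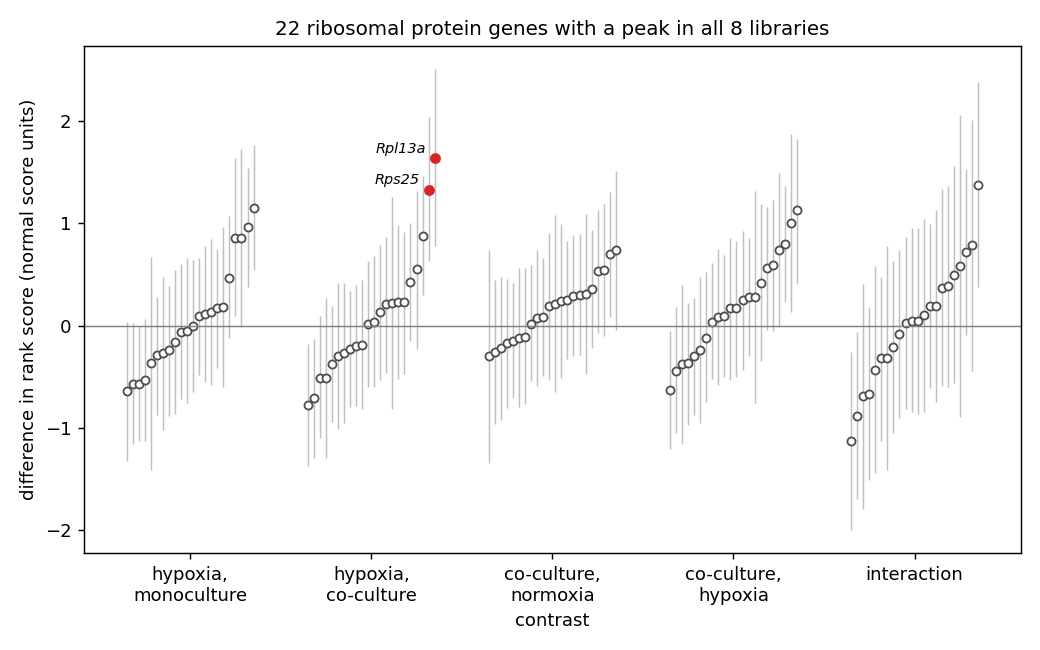
Difference in rank score (normal score units, vertical axis) for the 22 ribosomal protein genes with a peak in all 8 libraries, sorted within each of the 5 contrasts (horizontal axis); points are limma estimates, lines 95% intervals, and filled red points have an adjusted p under 0.05. The filled points are Rpl13a at 1.64 and Rps25 at 1.33, both for hypoxia in co-culture.

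Both hypoxic libraries ranked above both normoxic ones for 5 of the 22 members in monoculture and 5 in co-culture, and below them for 5 and 8. Over all genes tested these shares were 25.1% and 29.3% above, and 25.5% and 32.0% below. Both co-culture libraries ranked above both monoculture ones for 7 members in normoxia and 9 in hypoxia, against 18.4% and 30.4% of all genes, and below them for 2 and 5, against 18.2% and 32.0%. Over the 22 members the median difference was −0.03 for hypoxia in monoculture and 0.03 for hypoxia in co-culture, against 0.01 and −0.02 over all genes tested. For co-culture it was 0.20 in normoxia and 0.17 in hypoxia, against 0.01 and −0.01, and for the interaction 0.05 against −0.04. Close to the threshold in monoculture stood Rpl39, with a hypoxia difference of 1.15 (limma adjusted p = 0.0735), and Rps19, the gene most often mutated in Diamond-Blackfan anaemia, with 0.96 (SE 0.26, limma adjusted p = 0.0855). Rps19 was at 45.9 and 56.3 in monoculture normoxia, 90.5 and 87.5 in monoculture hypoxia, 82.7 and 85.2 in co-culture normoxia, and 95.5 and 95.1 in co-culture hypoxia. Within each culture both hypoxic libraries thus lay above both normoxic ones, and the co-culture difference was 0.88 (SE 0.26, limma adjusted p = 0.0602). The lowest adjusted p among members with a negative difference was that of Rpl30, a large-subunit gene, with −0.78 in hypoxic co-culture (SE 0.27, interval −1.37 to −0.18, limma adjusted p = 0.0893). Rpl30 was at 82.7 and 87.2 in co-culture normoxia and at 56.1 and 70.9 in co-culture hypoxia, so these groups did not overlap. Rpl38, also of the large subunit, had a difference of −0.71 in the same contrast (SE 0.26, interval −1.29 to −0.13, limma adjusted p = 0.11), from 82.3 and 85.5 to 59.7 and 69.0. Without the first or second monoculture normoxia library limma called Rps19 higher in hypoxic co-culture (adjusted p = 0.0359 and 0.0487) and Rpl30 lower (0.0498 and 0.0431). Rpl29 was called higher without the first (0.0276), Rpl38 lower without the second (0.0488), and Rpl35a higher with a window of 2 kb (0.0499).

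Other genes of protein synthesis give the setting. The members' group mean shares with a peak were 36.2%, 60.9%, 67.2% and 79.9% in monoculture normoxia, monoculture hypoxia, co-culture normoxia and co-culture hypoxia. For 78 mitochondrial ribosomal protein genes they were 47.4%, 66.0%, 78.8% and 79.5%, for 40 translation factors 66.2%, 81.2%, 95.0% and 96.2%, and for 40 ribosome biogenesis genes 47.5%, 72.5%, 86.2% and 92.5%. For 18 genes of TOP messenger RNA and mTORC1 control they were 38.9%, 66.7%, 66.7% and 86.1%. With peak lists of equal number the members' shares were 31.0%, 24.1%, 44.8% and 54.0%, those of mitochondrial ribosomal protein genes 41.7%, 31.4%, 50.0% and 41.0%, and those of translation factors 66.2%, 53.8%, 67.5% and 77.5%. For biogenesis genes they were then 43.8%, 32.5%, 55.0% and 61.2%, and for TOP and mTORC1 genes 38.9%, 33.3%, 38.9% and 61.1%. Monoculture hypoxia thus lay below monoculture normoxia in all 5 lists once the peak lists were of equal length, the reverse of the deposited lists. At annotated starts, hypoxia in co-culture gained a peak at 12 of 67 members, 4 of 69 mitochondrial ribosomal protein genes (with 3 lost), 0 of 31 translation factors, 1 of 34 biogenesis genes and 1 of 15 TOP and mTORC1 genes (with 1 lost). Over all genes with a known start, 1.7% gained and 0.692% lost one. The gains compared between these lists are those of the deposited peak lists. At gene ends the same contrast gave 6.9% of the members, 3.85% of mitochondrial ribosomal protein genes, 0.0% of translation factors, 2.5% of biogenesis genes and 11.1% of TOP and mTORC1 genes, against 1.79% of all genes. Co-culture in normoxia gave another order at starts, with 13.4% of the members, 18.8% of mitochondrial genes, 9.68% of translation factors, 29.4% of biogenesis genes and 3 of 15 TOP and mTORC1 genes, against 8.53% of all genes. No test was made of the difference between these lists. By limma in hypoxic co-culture, 4.13% of all genes tested were called higher and 3.95% lower. Of 21 translation factors tested, 2 rose: Eif5a by 1.87 (limma adjusted p = 0.0108) and Eif6, which keeps the subunits apart, by 1.64 (0.023). Of 27 mitochondrial genes tested, Mrps18b rose by 1.15 (0.0405) and Mrps30 fell by 1.17 (0.033), and Mrps30 fell by 1.28 in hypoxic monoculture as well (0.0453). Of 6 TOP and mTORC1 genes, Akt1s1, an inhibitory subunit of mTORC1, rose by 1.61 (0.041), and of 13 biogenesis genes none was called, with 4 (30.8%) at an unadjusted p under 0.05 against 27.8% of all genes. These calls depended on the libraries used: in hypoxic co-culture limma called 0 genes of all those tested without the second co-culture normoxia library or either co-culture hypoxia library, and 1 when ranked by fold enrichment. In hypoxic monoculture it called 0 without the first monoculture hypoxia library.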

How the data were processed

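Peak lists of 8 ATAC-seq libraries were used, each called on a single library. Per the submitters' processing notes, Trimmomatic 0.36, HISAT2 2.1.0, Picard, SAMtools, deepTools and MACS2 2.1.1.2 were used with build mm10. Their order and settings are not given in the sources used here. The deposited score, fold enrichment (a ratio), −log10 p and −log10 q belong to each peak of a list. The lowest deposited −log10 q was 2.0 to 2.08 by list.

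Members and lists were chosen with earlier results of these data known. Members named are those called, those with no or the fewest lists, the 5 highest and 5 lowest minimum percentiles, a preset list, and those gained or lost. Rank scores were fitted with limma 3.58.1 (R 4.3.3), 4 groups and no replicate block, at an adjusted p of 0.05, after a check on simulated data. Other steps used Python 3.11.15, numpy 2.4.6, pandas 2.3.3 and scipy 1.17.1. Read totals were not used here. Fragments at summits (medians 19.5 to 47.0 over members by library) were solved by assuming a fold of (n + 1)/(b + 1) and a Poisson p, which gave back −log10 p within 0.005 for 425 of 425 member peaks. Alternatives changed the window, overlap rule, threshold, list length, ranking, scale and libraries. Replicate numbers did not pair the libraries. Sequences come from RefSeq (GRCm38.p6). A few genes count in the totals but are not reported here by name.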

Additional observations from a re-analysis of the deposited data

How the results depend on the processing

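Counting peaks at annotated starts, alone or with lists of equal number, was chosen after seeing the data, as were all alternatives for gains and losses. The main counts of gains and losses were not planned beforehand either. Members with a peak in all 8 libraries numbered 22, but 11 in lists of equal number and 12 (of 67) at annotated starts, against 10.9% and 16.2% of all genes, and 22 to 29 with a library left out. Hypoxia gains in monoculture, 15, were 3 in lists of equal number and 1 at starts in such lists (17 to 24 with a library left out). Over all genes the shares moved as well, from 6.73% to 1.1% and 0.858% (9.09% to 12.8% with a library left out). Hypoxia gains in co-culture, 6, were 11 with peaks of −log10 p of at least 10 (2.78% of all genes) and 12 at starts (7 to 14 with a library left out). The shares of all genes were 1.79% for the 6, 1.7% at starts and 2.69% to 4.16% with a library left out. Co-culture gains in normoxia, 14, were 7 in lists of equal number, 9 at starts and 6 at starts in such lists (18 to 23 with a library left out). Co-culture gains in hypoxia, 13, stayed within 1.5 times in number under all 12 alternatives. They were 14 to 19 with a library left out, against 5.03% to 6.04% of all genes. With a library left out, a gain or a peak in every library asks for fewer libraries. Such counts, here and above, could therefore not fall. The genes gained did change: 2 of the 13 were among the 12 gained in lists of equal number, and 1 among the 10 at starts in such lists.

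Genes called by limma depended on the setting in every contrast. For hypoxia in monoculture, 56 genes became 30 with a −log10 p of at least 10, 16 by fold enrichment, 264 on log2 values and 18 at starts (0 to 271 with a library left out). For hypoxia in co-culture, 307 became 134, 1 and 782 under the first 3 of these (0 to 784 with a library left out). Of the members tested, 0 were called with a −log10 p of at least 10 or by fold enrichment, 1 (Rps19) at starts or in lists of equal number, and 5 on log2 values (Rpl13a, Rps19 and Rps25 higher, Rpl30 and Rpl38 lower). In the other contrasts members were called on log2 values (Rpl13a and Rps25 for co-culture in hypoxia) and without the first monoculture normoxia library (Rps25 for co-culture in hypoxia, Rpl39 for hypoxia in monoculture). For co-culture in normoxia, 1 became 0 with a window of 500 bp, without peaks wider than 10 kb, with a −log10 p of at least 10 and in lists of equal number, 6 by fold enrichment and 3 on log2 values (0 to 65 with a library left out). For co-culture in hypoxia, 12 became 4 without wide peaks, 0 with a −log10 p of at least 10, 90 in lists of equal number, 6 by fold enrichment, 500 on log2 values and 3 at starts (0 to 304 with a library left out). For the interaction, 0 became 3 with a window of 500 bp, with summits inside the window or with a −log10 p of at least 10, 1 by fold enrichment, 21 on log2 values and 5 at starts (0 to 11 with a library left out). The cause of these shifts was not tested. The number of genes tested also differed, with 2392 in lists of equal number, 2887 at the higher threshold and 2833 at starts, in place of 3801.

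With replicate number as a block, limma called 51, 301, 1, 2 and 0 genes in the 5 contrasts, with Rpl13a and Rps25 again in hypoxic co-culture. Deviations of libraries with the same number correlated by −0.05 to 0.11 across 3801 genes, so the numbers were not taken as pairs. With a library left out, the lone library of its group is assumed to vary like the others. Rpl13a ran from 1.07 to 2.19 and Rps25 from 1.04 to 1.57 in this way, with an adjusted p under 0.05 in 3 and 2 of 8 cases. At starts, in lists of equal number and with a −log10 p of at least 10 neither has a peak in all 8 libraries, so neither could be tested there. Depth limits what a missing peak means: members' summits held as few as 9 fragments.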
